A study of Mus musculus with 10 samples.

Results

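Tight junctions are the belts of strands that seal neighbouring hepatocytes to each other along the bile canaliculus and keep bile apart from blood. Their strands are built of claudins, some of which form a barrier and others a pore, together with occludin and junctional adhesion molecules. On the inner face of the membrane, the zonula occludens scaffolds encoded by the *Tjp* genes tie the strands to actin. Described here are 9 of the 21939 genes in the deposited table: the claudins *Cldn1*, *Cldn2*, *Cldn3*, *Cldn12*, and *Cldn14*, the occludin gene *Ocln*, the junctional adhesion molecule A gene *F11r*, and the scaffold genes *Tjp1* and *Tjp3*. They were picked with the knockout and control values of these libraries already known, so their own differences between genotypes are given as a description, without p-values. How many of them passed the threshold of the fit over all genes is stated beside the share of all genes that did, and nothing is read from it. P-values are given for other genes. All 9 passed the filter on low counts.

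RNA came from freshly isolated hepatocytes of 10 male mice, with 1 library per mouse. The mice were 8 to 9 weeks old when the experiment began. All mice, controls included, then received AAV8Cre and were sacrificed 12 days later. AAV8Cre is a viral vector of adeno-associated type in which the thyroxine-binding globulin promoter, active in hepatocytes, drives Cre recombinase. There were 3 control mice (C57BL/6J without floxed alleles), 2 Nrf2 KO mice (Nrf2 flox/flox), 2 p65 KO mice (p65 flox/flox), and 3 Nrf2:p65 DKO mice (both genes floxed, called DKO). *Nfe2l2* encodes Nrf2, the activator of antioxidant genes, and *Rela* encodes p65, a subunit of the inflammatory regulator NF-κB. With floxed alleles in the knockouts and none in the controls, effects of the gene loss and of the mouse line cannot be told apart.

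The libraries held between 33707165 and 49897382 estimated counts. Summed over the whole gene, *Nfe2l2* was higher in the libraries labelled Nrf2 KO (log2 fold change 1.21 ± 0.16 SE, adjusted p = 0.00488) and DKO (1.02 ± 0.14, adjusted p = 0.00347), and *Rela* had a log2 fold change of -0.07 ± 0.14 in p65 KO (adjusted p = 0.765). Gene totals include exons outside the floxed part, so they do not check the deletion, and the genotypes below are those of the labels. The summed hepatocyte markers in p65 KO were 0.999 times those of control, a sum of which *Alb* made up between 75.7% and 79.6% in each library. Of the 8 hepatocyte markers, *Cps1* (1.47-fold) and *Hnf4a* (1.38-fold) passed as higher and 0 passed as lower. Without passing, *Cyp2e1* (1.61-fold, adjusted p = 0.0612) lay above control and *Apoa1* (0.792-fold) below it, both without overlap. In p65 KO the summed cholangiocyte markers were 1.03 times those of control, with *Krt19* and *Cftr* at 3 counts or fewer in every library. The summed markers in p65 KO were 3.63 times the control level for sinusoidal endothelial cells, 7.82 times for Kupffer cells, and 7.35 times for stellate cells, and in DKO 1.90, 3.16, and 1.93 times, the last 1.22 times without the second DKO library. Lymphocyte and neutrophil markers summed to a mean of 3.77 normalized counts in control, 21.3 in p65 KO, and 20.6 in DKO, with 3 of 8 at 3 counts or fewer in every library and 0 of the 6 tested passing in either comparison. Their ratio to control in p65 KO was 5.66, and 3.51 without the first p65 KO library. Erythroid markers were at 0.499 times control in p65 KO (0.275 without the first p65 KO library) and 4.36 times in DKO (2.17 without the first DKO library). Leaving libraries out of these sums was chosen after seeing the data. In p65 KO, 8 of 8 endothelial, 8 of 8 Kupffer, and 5 of 8 stellate markers passed as higher, and in DKO 1, 3, and 1 did. The part of these cells in the differences described here was not tested.

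The sequences just upstream of *Cldn1*, *Tjp3*, and *Cldn3* are shown because these 3 genes passed as lower in p65 KO than in control and as higher in DKO than in p65 KO. *Ocln* had the same directions without overlap, but its log2 difference of 0.64 ± 0.20 (SE) between DKO and p65 KO did not pass. They come from the GRCm39 genome, run 5′ to 3′ on the strand of the gene, and end at the base before the start of the canonical transcript in GENCODE M39. *Cldn1* lies on the minus strand of chromosome 16 (26175392 to 26190596) and its window is chr16:26190597-26190846. *Tjp3* lies on the minus strand of chromosome 10 (81109034 to 81127417) and its window is chr10:81127117-81127297, shortened to 181 bases because the bases further upstream are an untranslated exon of other *Tjp3* transcripts. *Cldn3* lies on the plus strand of chromosome 5 (135015068 to 135016326) and its window is chr5:135014818-135015067. Capitals mark every match to the searched motifs.
Cldn1: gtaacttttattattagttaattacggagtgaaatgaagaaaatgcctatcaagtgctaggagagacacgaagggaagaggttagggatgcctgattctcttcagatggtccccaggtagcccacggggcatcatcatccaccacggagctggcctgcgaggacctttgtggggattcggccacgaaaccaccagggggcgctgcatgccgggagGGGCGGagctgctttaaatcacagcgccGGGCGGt
Tjp3: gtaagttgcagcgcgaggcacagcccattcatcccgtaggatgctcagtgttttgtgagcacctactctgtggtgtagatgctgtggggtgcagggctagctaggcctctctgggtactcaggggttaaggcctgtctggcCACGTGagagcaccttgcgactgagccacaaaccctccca
Cldn3: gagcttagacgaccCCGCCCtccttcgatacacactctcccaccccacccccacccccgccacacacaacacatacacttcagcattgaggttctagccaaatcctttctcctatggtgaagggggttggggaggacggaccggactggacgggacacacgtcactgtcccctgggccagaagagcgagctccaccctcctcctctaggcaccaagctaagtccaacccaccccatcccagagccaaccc

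Motifs were searched on both strands of the 250 bases upstream of 13630 genes. The GC box GGGCGG, which occurred in 47.1% of those windows, was found in *Cldn1* and *Tjp1* (2 matches each), *Cldn3*, *Ocln*, and *F11r*. The E-box CACGTG occurred in 7.57% of windows and, among the 9 genes, in *Tjp3*, at 40 to 35 bases before the start. The AP-1 motif TGAGTCA occurred in 3.26% of windows and, among the 9 genes, in *F11r*, at 72 to 66 bases before the start. The NF-κB motif (GGG, any pair of bases, TTTCC; 1.46% of windows), the antioxidant response motif TGACNNNGC (10.6%), the HNF4 motif CAAAGTCCA (0.404%), and the HNF1 motif (GTTAAT, any base, ATTAAC; 0.00734%) were in none of the 9 windows, which says only that these letters are not there. GC content over the full 250 bases was 54.8% in *Cldn1*, 56% in *Tjp3*, and 60.8% in *Cldn3*, beside a median of 56% over all windows. For *Tjp3* this takes in the bases that are not printed above. The *Ocln* window lies inside an untranslated exon of another *Ocln* transcript and is not printed.

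Of the claudins, *Cldn1*, a barrier-forming claudin, had the widest range. In normalized counts, *Cldn1* was at 4331, 4820.4, and 3730.1 in the control libraries, 4418 and 3957 in Nrf2 KO, 1385 and 924 in p65 KO, and 2762, 2269, and 2052 in DKO. Control and Nrf2 KO libraries overlapped, whereas all p65 KO libraries were below all DKO libraries and these below all others. The log2 fold change against control was -1.90 ± 0.20 (SE) for p65 KO, -0.86 ± 0.17 for DKO, and -0.04 ± 0.18 for Nrf2 KO. The p65 KO mean was 26.9% of the control mean and the DKO mean 55.0%, so DKO stood 38.4% of the way from p65 KO back to control. In a bulk library, fewer cells of a type and less RNA per cell cannot be told apart.

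*Cldn3*, another barrier-forming claudin, had a smaller difference that was seen in p65 KO. Its normalized counts were 1764, 1924, and 1871 in control, 2008 and 1932 in Nrf2 KO, 1309 and 1114 in p65 KO, and 2373, 1573, and 1875 in DKO. The p65 KO libraries lay below all others, and DKO libraries spread on both sides of control. The log2 fold change against control was -0.61 ± 0.16 for p65 KO and 0.07 ± 0.14 for DKO, and DKO exceeded p65 KO by 0.68 ± 0.16.

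*Cldn2*, which forms pores for cations and water, was at 3133, 3308, and 2028 in control, 2320.3 and 2381 in Nrf2 KO, 1891 and 2187 in p65 KO, and 1542, 998, and 2435 in DKO. Every knockout genotype overlapped control. Its lowest mean was in DKO, with a log2 fold change of -0.77 ± 0.28 that did not pass the threshold in edgeR. With 1 library left out, it lay between -1.15 and -0.51. The omission of the third DKO library gave -1.15 and was the only omission with which it passed. It also passed in DESeq2.

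*Cldn12* and *Cldn14* differed little between genotypes. *Cldn12*, a claudin without the usual scaffold-binding tail, ranged from 2181 to 2857 over the 10 libraries. Its p65 KO libraries (2407 and 2597) and DKO libraries (2390, 2411, and 2181) lay below all controls (2628, 2795, and 2650) by small steps. The log2 fold changes of *Cldn12* were 0.06 ± 0.10 for Nrf2 KO, -0.11 ± 0.10 for p65 KO, and -0.21 ± 0.09 for DKO. *Cldn14*, a cation-barrier claudin, ranged from 206 to 526, and its spread within genotypes was as wide as that between them, with a control SD of 126 around a mean of 374. Its log2 fold changes were 0.14 ± 0.35, -0.11 ± 0.36, and -0.34 ± 0.32 in the same order.

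*Ocln* encodes occludin, the strand protein of the MARVEL family. Its normalized counts were 1024, 885, and 1347 in control, 1111 and 896 in Nrf2 KO, 604 and 471 in p65 KO, and 803, 971, and 731 in DKO. The p65 KO libraries lay below all others, and DKO overlapped control. The log2 fold change was -1.01 ± 0.20 in p65 KO, a mean at 49.5% of control, and -0.38 ± 0.18 in DKO.

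*F11r*, which encodes the adhesion molecule JAM-A, was the most even of the 9 genes. Its normalized counts were 2584, 2574, and 2608 in control, 2345 and 2391 in Nrf2 KO, 2544 and 2499.9 in p65 KO, and 2459, 2631, and 2166 in DKO. Nrf2 KO and p65 KO libraries lay below the tightly grouped controls by small steps, with log2 fold changes of -0.13 ± 0.10 and -0.04 ± 0.10, and DKO was at -0.10 ± 0.09.

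The scaffolds *Tjp1* and *Tjp3*, which encode ZO-1 and ZO-3, did not move alike. *Tjp1* was at 909.9, 1322, and 1261 in control, 1249 and 1112 in Nrf2 KO, 1368 and 1163 in p65 KO, and 1272, 1269, and 1087 in DKO, and all genotypes overlapped. Against control, *Tjp1* differed by 0.12 ± 0.16 (log2) for p65 KO, 0.05 ± 0.15 for DKO, and 0.02 ± 0.16 for Nrf2 KO. *Tjp3* had the widest range of genotype means of the 9 genes, with 841, 1017, and 823 in control, 835 and 727 in Nrf2 KO, 242 and 154 in p65 KO, and 559, 376, and 408 in DKO. As for *Cldn1*, the 2 p65 KO libraries were lowest and the 3 DKO libraries lay between them and the others without overlap. Against control, *Tjp3* had a log2 fold change of -2.18 ± 0.23 for p65 KO, -0.996 ± 0.19 for DKO, and -0.19 ± 0.21 for Nrf2 KO. The p65 KO mean of *Tjp3* was 22.1% of control and the DKO mean 50.1%.

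**Figure D1:**
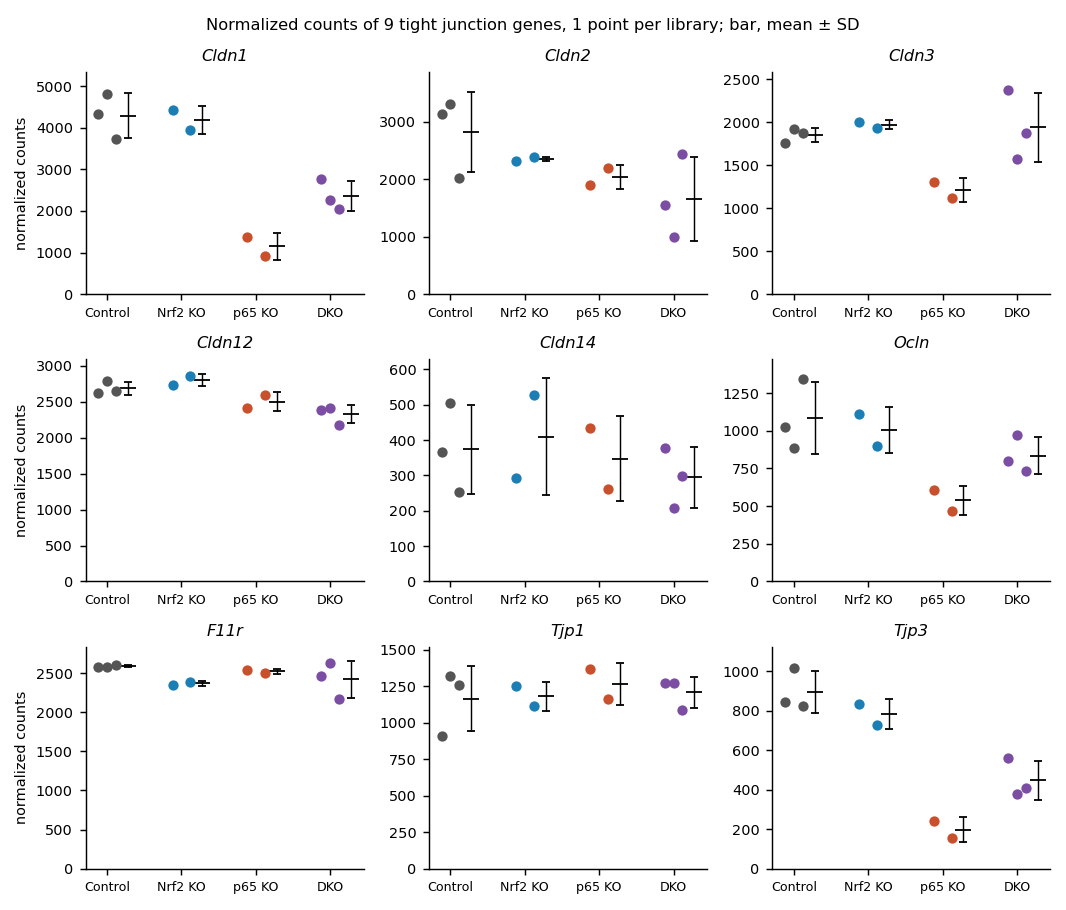
Normalized counts (y axis, from 0) of the 9 tight junction genes by genotype (x axis), with 1 point per library and a bar for mean ± SD. *Cldn1* and *Tjp3* step down from control and Nrf2 KO to DKO and further to p65 KO, and *Ocln* and *Cldn3* are lowest in p65 KO. *Cldn12*, *F11r*, and *Tjp1* differ by small steps between genotypes.

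Counted over the 9 genes, 4 passed an adjusted p of 0.05 as lower in p65 KO (*Cldn1*, *Cldn3*, *Ocln*, *Tjp3*) and 0 as higher, beside 6.77% of all 13641 genes tested that passed as lower. In DKO, 2 were lower (*Cldn1* and *Tjp3*), beside 2.84% of all genes. In DKO against p65 KO, 3 were higher (*Cldn1*, *Cldn3*, *Tjp3*), beside 2.05% of all genes. Since the 9 genes were picked with these values known, nothing is read from their counts. In Nrf2 KO, 0 of the 9 passed in edgeR, 0 had an unadjusted p under 0.05, and 0 passed in DESeq2, beside 0.726% of all genes called in edgeR. Between DKO and Nrf2 KO, 0 passed in edgeR, beside 0.513% of all genes called in edgeR. There, 3 had an unadjusted p under 0.05, and 2 passed in DESeq2 (*Cldn1* and *Tjp3*). *Cldn1* also passed there in edgeR without the filter on low counts. The interaction asks whether Nrf2 loss acts alike with and without p65. For it, 0 passed in edgeR, beside 0.469% of all genes called in edgeR, and 4 had an unadjusted p under 0.05. In DESeq2, 2 passed (*Cldn1* at 1.07 ± 0.27 and *Tjp3* at 1.37 ± 0.31 in the edgeR fit). *Tjp3* also passed for it in edgeR without the filter on low counts. For the unadjusted p and DESeq2, here and for the lists below, no share of all genes was computed, so nothing is read from those counts. The share of all genes without overlap between the libraries was 23.8% for lower in p65 KO, 13.2% for lower in DKO, 18.5% for higher in DKO than in p65 KO, and 13.6% for lower in Nrf2 KO.

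The median log2 fold change of the 9 genes was -0.47 for p65 KO, -0.34 for DKO, and -0.04 for Nrf2 KO, beside medians over all genes of 0.000896, 0.0246, and 0.00185. Scaling to equal totals instead of TMM raised the median log2 fold change over well-expressed genes (mean normalized count 50 or more) in p65 KO by 0.18 and changed it in DKO against p65 KO by -0.27. Under it *Cldn12*, *Cldn14*, and *F11r* changed the sign of their small difference in p65 KO, as did *Cldn3* and *Tjp1* in DKO, and *Cldn3* no longer passed in p65 KO or in DKO against p65 KO. Those 2 calls of *Cldn3* were also lost when single libraries were left out, the first without any 1 of the 3 controls or the 2 p65 KO libraries and the second without any 1 library but the second DKO library. *Ocln* in p65 KO was lost without the second p65 KO library. In DKO, *Cldn1* was lost without the first or second control and *Tjp3* without the second control, and both were lost in DKO against p65 KO without the second p65 KO or the first DKO library. With 1 library left out, the log2 fold change in p65 KO lay between -2.21 and -1.63 for *Cldn1* and between -2.53 and -1.89 for *Tjp3*.

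**Figure D2:**
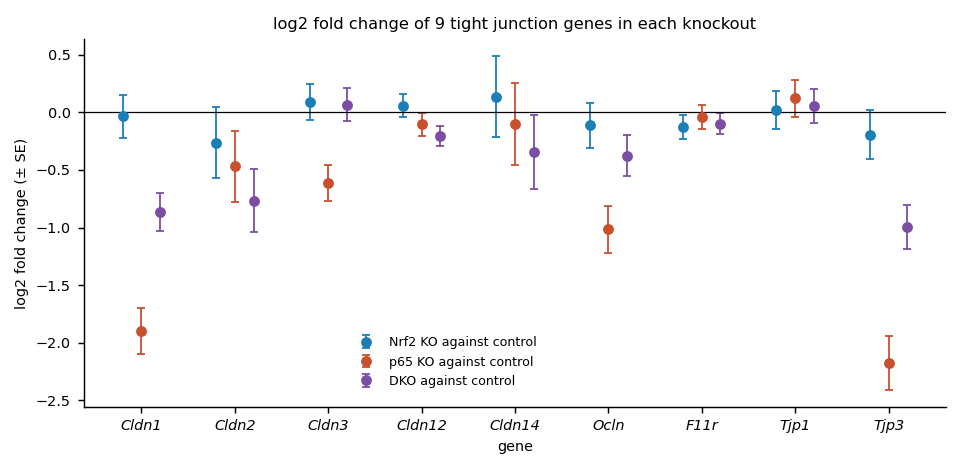
log2 fold change against control ± SE (y axis) of the 9 genes (x axis) in Nrf2 KO, p65 KO, and DKO, all set against the same 3 control libraries. *Cldn1* and *Tjp3* are furthest from 0, at -1.90 and -2.18 in p65 KO and -0.86 and -0.996 in DKO.

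Levels of different genes were compared per kilobase of the canonical transcript. In control, the order of normalized counts per kilobase was *Cldn3* at 1472, *Cldn1* at 1320.4, *Cldn2* at 899, *F11r* at 781, *Cldn12* at 535, *Tjp3* at 293, *Cldn14* at 256, *Tjp1* at 168, and *Ocln* at 160.1. In p65 KO, *Cldn1* stood at 355 per kilobase, below *Cldn3* (962), *F11r* (761), *Cldn2* (649), and *Cldn12* (497), and *Tjp3* at 64.98 and *Ocln* at 79.3 were the lowest. Of the per-kilobase sum of the 5 claudins, *Cldn1* made up between 28.8% and 29.9% in control, 27.4% and 30.6% in Nrf2 KO, 11.1% and 15.0% in p65 KO, and between 17.9% and 24.2% in DKO. *Cldn3* made up between 30.8% and 37.4% in control, 34.6% and 36.6% in p65 KO, and between 42.2% and 47.6% in DKO. The claudin mix thus held less *Cldn1* in p65 KO and DKO, and its largest part was *Cldn3* in every library.

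The profiles of *Cldn1* and *Tjp3* over the 10 libraries were close to each other, with Pearson's r of 0.993 on log2(normalized count + 1), while *Ocln* had r of 0.853 with *Cldn1* and 0.849 with *Tjp3*. Such correlations over 10 libraries carry the differences between the genotypes. After subtracting the genotype means, which leaves 6 free deviations, r was 0.923 between *Cldn1* and *Tjp3*. A search of the 10176 genes with a mean normalized count of 50 or more found *Bmal1* (r = 0.985), *Rfx4* (0.982), and *Dtx4* (0.982) most like *Tjp3*, and *Fhip1a* (0.986), *Dtx4* (0.982), and *Bmal1* (0.981) most like *Cldn1*. *Bmal1*, a core activator of the circadian clock, was at 758, 1129.9, and 498 in control, 699.96 and 323 in Nrf2 KO, 30.5 and 21.7 in p65 KO, and 270.3, 132, and 130.4 in DKO. *Dtx4*, a ubiquitin ligase gene, was at 667, 779.8, and 515 in control, 705 and 531 in Nrf2 KO, 158 and 85.1 in p65 KO, and 499.7, 321, and 333 in DKO. The libraries came in the same order as for *Bmal1* within 4 of the 4 genotypes for *Cldn1* and 3 of 4 for *Tjp3*, and in the same order as for *Dtx4* within 3 of 4 for *Cldn1* and 4 of 4 for *Tjp3*. These genes were picked for their likeness over the same libraries. For *Cldn1*, r after subtracting the genotype means was 0.803 with *Bmal1* and 0.970 with *Dtx4*. For *Tjp3* these values of r were 0.794 and 0.958. The study's methods place injection and sacrifice in the morning without an hour per mouse, and whether the time of sacrifice has a part in these differences was not tested. The genes most like *Ocln* were *Cluap1* (0.975), *Gucd1* (0.963), and *Nipsnap1* (0.947).

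**Figure D3:**
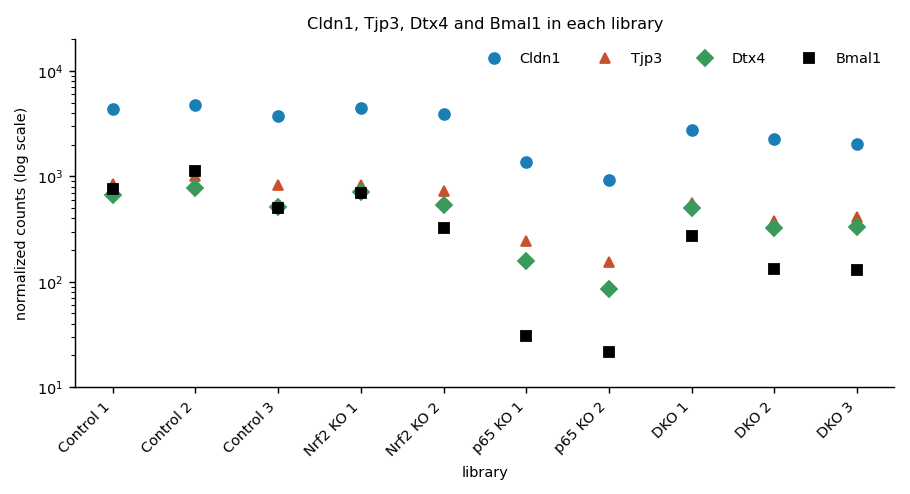
Normalized counts (y axis, log scale) of *Cldn1*, *Tjp3*, *Dtx4*, and *Bmal1* in each of the 10 libraries (x axis). All are lowest in the 2 p65 KO libraries, where *Bmal1* is at 30.5 and 21.7, and lie between these and control in the 3 DKO libraries.

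To place the 9 genes among the rest of the junction, a list of 53 other tight junction genes was examined, of which 50 are in the table and 33 were tested. The 17 other claudins in the table had few counts. Of these, 15 had 3 counts or fewer in every library, 9 of them 0, and *Cldn5*, the endothelial claudin, was the only one tested. In p65 KO, 4 of the 33 rose and 5 fell at an adjusted p of 0.05 in edgeR over all genes, beside 8.13% and 6.77% of all genes, and the median log2 fold change of the 33 was 0.05.

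Those described here that fell in p65 KO encode plaque, polarity, or membrane proteins of epithelial junctions. *Cgn*, which encodes cingulin, a linker of the plaque to actin and myosin, was at 1540.5, 1874, and 1305 in control and at 695 and 667 in p65 KO, with no overlap (log2 fold change -1.21 ± 0.17, adjusted p = 0.00221). *Cxadr*, which encodes the adhesion protein that coxsackie virus and adenovirus bind, was at 4127, 4906, and 3841 in control and at 2246 and 2138 in p65 KO (-0.97 ± 0.13, adjusted p = 0.00174). Both calls held when any 1 of the 10 libraries was left out. *Crb3*, a polarity gene (-0.55 ± 0.13, adjusted p = 0.0206), and *Lsr*, which encodes a protein of the corners where 3 cells meet (-0.48 ± 0.14, adjusted p = 0.0435), fell less. The calls of *Crb3* and *Lsr* were lost when scaled to equal totals. With single libraries left out, *Crb3* was lost without the first or second control or either p65 KO library (adjusted p up to 0.093), and *Lsr* without any 1 of the control, Nrf2 KO, or p65 KO libraries (up to 0.224).

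Of the 4 that rose in p65 KO, *Esam* and *Jam2* are known from endothelium. *Esam*, an endothelial adhesion molecule, was at 35.3, 21.6, and 29.0 in control and at 149 and 112 in p65 KO (log2 fold change 2.19 ± 0.39, adjusted p = 0.00633). *Jam2*, a junctional adhesion molecule of endothelium, was at 21.0, 52.1, and 23.3 in control and at 152 and 89.8 in p65 KO (1.91 ± 0.49, adjusted p = 0.0274). *Esam* did not pass without the first p65 KO library (adjusted p = 0.0622), nor *Jam2* without that library or the first or the third control (up to 0.211). *Amotl1*, a motin scaffold, had a log2 fold change of 2.08 ± 0.50 (adjusted p = 0.0214) and is named after its values were seen, its mean of 47.9 being under the minimum of 50 for named genes. It too was lost without the first p65 KO library or the first or the third control. The summed sinusoidal endothelial markers rose as well, from 616, 1092, and 1328 in control to 4313 and 3034 in p65 KO. As a share of that sum, *Esam* was at 5.73%, 1.98%, and 2.18% in control and at 3.46% and 3.68% in p65 KO. *Jam2* was at 3.4%, 4.77%, and 1.76% of the sum in control and at 3.53% and 2.96% in p65 KO. Whether endothelial cells have a part in these rises was not tested. *Cldn5* had a log2 fold change of 1.54 ± 0.63 that did not pass (adjusted p = 0.123). *Ildr2*, the other gene that rose, is a tricellular junction gene and was at 483, 526, and 472 in control, 314 and 326 in Nrf2 KO, and 699 and 752 in p65 KO (0.56 ± 0.17 in p65 KO, adjusted p = 0.0468), a call lost without any 1 of the control, Nrf2 KO, or p65 KO libraries (adjusted p up to 0.168).

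**Figure D4:**
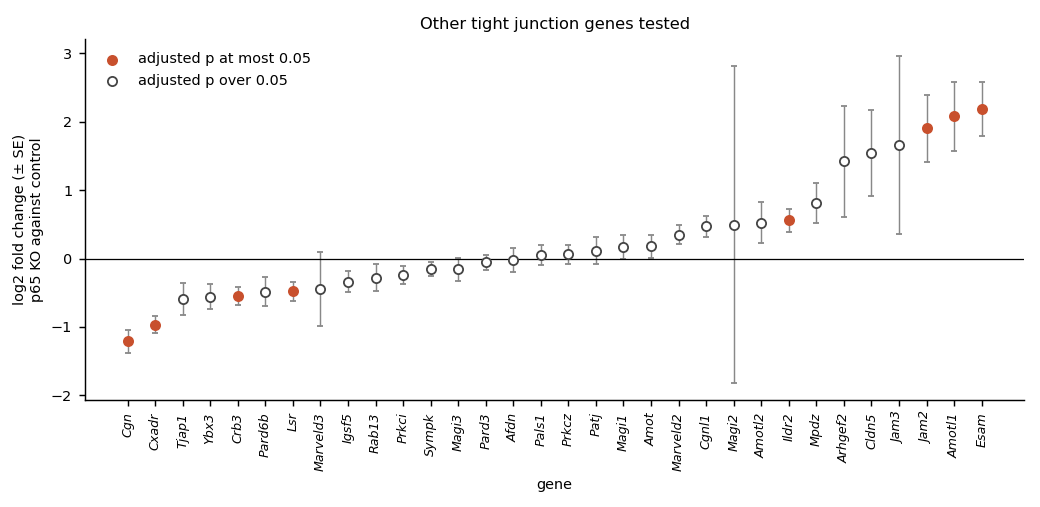
log2 fold change ± SE (y axis) in p65 KO against control of 32 of the other tight junction genes tested (x axis, ordered by value), filled where the adjusted p was at most 0.05. *Cgn* and *Cxadr* lie at the lower end at -1.21 and -0.97, and *Esam*, *Amotl1*, and *Jam2* at the upper end between 1.91 and 2.19.

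**Figure D5:**
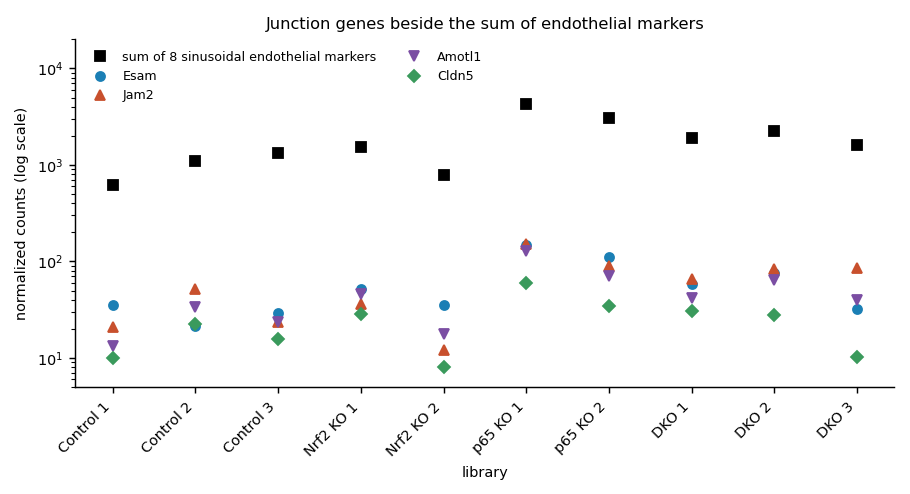
Normalized counts (y axis, log scale) of *Esam*, *Jam2*, *Amotl1*, and *Cldn5* in each library (x axis), with the sum of 8 sinusoidal endothelial markers. The sum and the 4 genes are all highest in the first p65 KO library, where the sum is 4313 and *Jam2* is at 152.

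In DKO, 3 of the 33 fell and 0 rose against control, beside 2.84% and 2.61% of all genes. They were *Cgn* (-0.61 ± 0.14, adjusted p = 0.0337), *Igsf5*, a junctional adhesion gene of the immunoglobulin family (-0.60 ± 0.14, adjusted p = 0.0309), and *Cxadr* (-0.46 ± 0.11, adjusted p = 0.034). DESeq2 also called 3, and 0 were left in edgeR without the first control or without any 1 of the DKO libraries (adjusted p up to 0.104 for *Cgn*, 0.115 for *Igsf5*, and 0.102 for *Cxadr*). Against p65 KO, 3 were higher, among them *Lsr* (0.72 ± 0.14, adjusted p = 0.0233) and *Cxadr* (0.51 ± 0.12, adjusted p = 0.047), and 1, *Ildr2* (-0.68 ± 0.17, adjusted p = 0.0484), was lower, beside 2.05% higher and 2.06% lower of all genes. *Lsr* in DKO was at 11055, 8145, and 8409, above both p65 KO libraries at 5399.6 and 5750.3. None of these 4 passed without the first or without the second p65 KO library, and *Lsr* passed in the other 8 fits with 1 library left out. *Cxadr* and *Ildr2* passed in 3 and 1 of the 10 such fits, and in none with the first DKO library left out. A fit of p65 KO and DKO alone called 0 of the 33, and likewise neither *Cldn1* nor *Tjp3*.

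For Nrf2 KO against control, 0 of the 33 passed in edgeR, beside 0.726% of all genes, 3 had an unadjusted p under 0.05, and 1 passed in DESeq2. Between DKO and Nrf2 KO the counts were 0 (0.513% of all genes), 7, and 2, and for the interaction 0 (0.469%), 9, and 3. 

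Adherens, desmosome, and gap junction genes were examined as a second list of 25, of which 24 were tested. In p65 KO, 2 rose and 4 fell, beside 8.13% and 6.77% of all genes. *Cdh1*, which encodes E-cadherin of the adherens junction, was at 2624, 2838, and 2541 in control, 1459 and 1163 in p65 KO, and 4218, 3849.8, and 2308 in DKO. It was lower in p65 KO than in control (-1.02 ± 0.22, adjusted p = 0.0148) and higher in DKO than in p65 KO (1.40 ± 0.23, adjusted p = 0.0109), with an interaction of 1.35 ± 0.31 that did not pass (adjusted p = 0.0983). Without 1 of the p65 KO libraries, whichever was left out, neither *Cdh1* call held. *Vcl*, which encodes the actin linker vinculin, fell in p65 KO (-0.67 ± 0.12, adjusted p = 0.00683) and passed in all 10 fits with 1 library left out. The desmosome genes *Perp* (-0.54 ± 0.13, adjusted p = 0.0192) and *Pkp2* (-0.49 ± 0.13, adjusted p = 0.0319) fell, whereas *Jup*, the plakoglobin gene shared by both junction types, rose (0.42 ± 0.11, adjusted p = 0.0336). *Gja4*, an endothelial connexin gene with a mean of 23.4 and named after its values were seen, rose as well (3.25 ± 0.71, adjusted p = 0.0152). As a share of the endothelial marker sum, *Gja4* was between 0.358% and 0.985% in control and at 1.72% and 1.93% in p65 KO. Without the first control or the first p65 KO library, *Perp* and *Gja4* were lost, as were *Pkp2* and *Jup*, which were also lost without other single libraries (adjusted p up to 0.157 for *Perp*, 0.147 for *Pkp2*, and 0.156 for *Jup*).

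In DKO against control, 3 genes of that list fell and 1 rose, beside 2.84% and 2.61% of all genes. *Perp* (-0.57 ± 0.11, adjusted p = 0.0187), *Pkp2* (-0.51 ± 0.12, adjusted p = 0.0304), and *Dsp*, the desmoplakin gene (-0.59 ± 0.15, adjusted p = 0.0462), were lower, and *Jup* was higher (0.43 ± 0.10, adjusted p = 0.0375). *Perp* was at 3276, 2623, and 3045 in control, 1986 and 2077 in Nrf2 KO, 1889.6 and 2197 in p65 KO, and 1879, 1974, and 2188 in DKO, so all knockout libraries lay below control. In Nrf2 KO its log2 fold change of -0.55 ± 0.13 did not pass (adjusted p = 0.102). Without the first control or the first DKO library, 0 of the 24 passed in DKO. *Gjb1*, the main hepatocyte connexin gene, had log2 fold changes of -0.22 ± 0.11 in p65 KO (adjusted p = 0.188) and -0.04 ± 0.10 in DKO (adjusted p = 0.828). In Nrf2 KO, 0 of the 24 passed in edgeR, beside 0.726% of all genes, 3 had an unadjusted p under 0.05, and 1 passed in DESeq2.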

How the data were processed

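RNA of freshly isolated hepatocytes from 10 mice was sequenced as single-end reads from poly-A selected stranded libraries. The authors quantified the reads with Salmon 1.10.3 on GRCm39 with GENCODE M33 and deposited a table named as normalized. Its values are whole numbers with unequal totals, 33707165 to 49897382 per library (median 37043490.5), and were treated as the deposited estimated counts per gene, rounded. Their tests used DESeq2 1.42.1. Columns were assigned by name, and replicates of 1 genotype differed by more than sampling noise (chi-square per degree of freedom 44.8 to 204).

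For the 13641 genes with at least 10 summed counts, edgeR 4.0.16 (R 4.3.3) gave quasi-likelihood tests with TMM, all 4 genotypes in 1 fit, and Benjamini-Hochberg adjustment over all genes (threshold 0.05). The script was tested on simulated counts. Each normalized count is the estimated count after TMM scaling to the mean library size. SEs are those of log2 fold changes. Each was derived from the quasi-likelihood F statistic, as the absolute log2 fold change divided by the square root of F. It is therefore not an estimate separate from the test.

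The 9 genes and all gene lists were chosen with earlier results of these data known. Named beside the 9 genes are listed genes with an adjusted p of at most 0.05 and a mean of at least 50, and the 3 genes most like each of the 3 most variable of the 9. A listed gene that is in the counts is not reported here by name. Gene positions came from GENCODE M39, which held 21926 of 21939 identifiers. Overlapping antisense genes were counted as deposited. Alternatives were DESeq2 1.42.0, equal totals, no filter, a replicate block, fits of just the 2 genotypes in question, and omission of each library in turn. Same-numbered libraries did not deviate together, so they were not paired.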

Additional observations from a re-analysis of the deposited data

How the results depend on the processing

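The counts of other tight junction genes and other junction genes called at an adjusted p of 0.05 moved with several choices, and no called difference reversed its direction. With DESeq2, the tight junction list had 1 call in Nrf2 KO (edgeR 0), 7 in DKO against p65 KO (edgeR 4), 2 in DKO against Nrf2 KO (edgeR 0), and 3 in the interaction (edgeR 0), and the other junction list had 1, 2, 2, and 1 (edgeR 0, 1, 0, and 0). Without the filter on low counts, the tight junction list had 1 call in Nrf2 KO, and the other junction list 2 in DKO against p65 KO and 1 in the interaction. Scaled to equal totals, the other junction list had 6 calls in DKO against p65 KO. With only the 2 genotypes compared in the fit, which leaves fewer libraries, the tight junction list had 0 calls in DKO against control and 0 in DKO against p65 KO, and the other junction list 1 and 0. Leaving out 1 library at a time gave the tight junction list between 0 and 1 calls in Nrf2 KO, between 3 and 11 in p65 KO, between 0 and 3 in DKO, and between 0 and 3 in DKO against p65 KO. It gave the other junction list between 1 and 8 calls in p65 KO, between 0 and 3 in DKO, between 0 and 1 in DKO against p65 KO, and between 0 and 1 in the interaction. The cause of these moves was not tested. Replicate numbers are only names here: of 13 same-numbered pairs of libraries, 1 had correlated deviations over 0.1 (r between -0.232 and 0.113). With the replicate block, the tight junction list had 5 calls in p65 KO, 0 in DKO, and 2 in DKO against p65 KO. Among the single genes, calls differed in how many of the 10 fits with 1 library left out they held. *Cgn*, *Cxadr*, and *Vcl* in p65 KO passed in all 10. *Jup* in DKO and *Ildr2* in DKO against p65 KO passed in 1 each. The direction of these differences was kept in every such fit.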
